A study of Mus musculus with 52 samples.

Results

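The 10 genes described here encode subunits of the transcription factor NF-kB (Nfkb1, Nfkb2, Rel, Rela and Relb), inhibitors and an atypical family member (Nfkbia, Nfkbie and Bcl3), and genes known as direct targets (Traf1 and Tnfaip2). They were chosen by name from a table of 23115 mouse genes, with earlier results of these data known. RNA had been sequenced in bulk, from 3' ends with molecular identifiers, in conventional type 1 dendritic cells (cDC1), the dendritic cells that cross-present antigen to CD8 T cells. Per the labels, all groups were CD103+ cDC1 sorted from bone marrow cultures of C57BL/6 mice grown with GM-CSF and FLT3L. The 52 libraries formed 13 groups of 4, lettered A to D.

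At 4 h, 9 groups were compared. These were untreated cells, cells given 100 ng/ml prostaglandin E2 (PGE2), cells in medium conditioned by BRAFV600E melanoma cells (control CM), and cells in medium of such melanoma cells lacking Ptgs1 and Ptgs2 (Ptgs-deficient CM). The deletion was thus in the tumour cells and not in the cDC1, and whether either tumour line is 1 clone is not given in the labels. In the other 5 groups an antagonist of a PGE2 receptor was added at 5 uM, 30 min before PGE2. SC-19220 was used against EP1, PF-04418948 against EP2, L-826,266 against EP3 and L161,982 against EP4. The group titled EP2 plus EP4 antagonist carries a conflicting treatment label, which names SC-19220, elsewhere the EP1 antagonist, together with L161,982. It is called the combined antagonist group below. At 24 h, 4 groups were compared: untreated cells, PGE2 for 24 h, and each of these with 10 ug/ml poly I:C for 4 h. Poly I:C is a synthetic double-stranded RNA sensed by TLR3. The labels do not say whether those 4 h lay within or after the 24 h, so that poly I:C and time in culture cannot be told apart to that extent.

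NF-kB acts as dimers of its subunits. In the canonical pathway, signals from receptors such as toll-like receptors free dimers of p50 (from Nfkb1) with RelA or c-Rel from inhibitors of the IkB family, while in the non-canonical pathway the kinase NIK (Map3k14) leads to processing of the Nfkb2 product and to dimers with RelB. Several subunits and inhibitors are themselves NF-kB targets, which gives the pathway its feedback, and RelB and c-Rel are known for their part in dendritic cell maturation.

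Library totals ran from 42633 counts (EP4 antagonist A) and 54037 (untreated A at 4 h) to 438013, with a median of 295243.5. All 10 genes passed the filter on low counts in the 4 h and in the 24 h fit, and 9 passed it in the fit across both times, where Bcl3 did not. Levels are counts scaled to a common library size (CPM), scaled between libraries. In the 2 shallow libraries a few counts make large CPM values. Relb at 16 CPM in untreated A at 4 h was 1 count, and Traf1 at 128 CPM there was 8. Summed CPM of 10 cDC1 markers, among them Xcr1 and Clec9a, averaged between 3884 (EP1 antagonist) and 8025 (untreated, 4 h) over the groups. Group means of the lymphocyte and granulocyte marker sums stayed at or below 16.5 CPM, and single libraries at or below 26 CPM. Only 6 of 8 listed lymphocyte markers and 4 of 8 granulocyte and mast cell markers were among the genes counted. Nkg7 was at 0 in all libraries, so these low sums rest on few markers. Other lists were higher, with group means from 486 to 1955 CPM for macrophage and monocyte markers. Group means ran from 72.2 to 1139 CPM for plasmacytoid dendritic cell markers and from 18.1 to 207 CPM for cDC2 markers. The labels call the libraries biological replicates without naming separate animals or cultures, so the p-values reflect only how much these libraries varied, and that variation may be technical.

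In the GRCm38 annotation (GENCODE M21), Nfkb2 lies on chromosome 19 at 46304320-46312385, Relb on chromosome 7 at 19606217-19629438, Nfkbia on chromosome 12 at 55489410-55492647, Nfkbie on chromosome 17 at 45555703-45563169, Traf1 on chromosome 2 at 34941750-34961772 and Tnfaip2 on chromosome 12 at 111442469-111455018. Exons of Nfkb2 (with Psd and AC114539.1), Bcl3 (with Gm16175) and Tnfaip2 (with Gm40578) overlap genes on the opposite strand. The sources used here do not say whether counting was strand-specific, so that reads of these pairs could not be told apart.

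Promoter windows were found for 8 of the 10 genes in a RefSeq table of build GRCm38.p6. Of these, 6 are printed: those of 5 genes that PGE2 raised at 4 h, as given below, and that of Rel, which did not pass there. Each line is the 120 bases before the annotated start, 5′ to 3′ on the gene's strand. Capitals mark matches, on either strand, to the 10-base kappaB consensus, the sequence NF-kB dimers are known to bind, and to TGACG, the core letters of a cAMP response element. The coordinates are chr19:46304617-46304736 (plus strand) for Nfkb2, whose first of 3 annotated starts is shown, chr11:23770970-23771089 (minus strand) for Rel, chr12:55492648-55492767 (minus strand) for Nfkbia, chr17:45555580-45555699 (plus strand) for Nfkbie, chr2:34961773-34961892 (minus strand) for Traf1 and chr12:111442541-111442660 (plus strand) for Tnfaip2.
Nfkb2: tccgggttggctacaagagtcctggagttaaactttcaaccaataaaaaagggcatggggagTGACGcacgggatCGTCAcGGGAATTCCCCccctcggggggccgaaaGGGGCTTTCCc
Rel: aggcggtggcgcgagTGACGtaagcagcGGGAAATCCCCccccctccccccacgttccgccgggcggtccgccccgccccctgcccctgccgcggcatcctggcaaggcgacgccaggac
Nfkbia: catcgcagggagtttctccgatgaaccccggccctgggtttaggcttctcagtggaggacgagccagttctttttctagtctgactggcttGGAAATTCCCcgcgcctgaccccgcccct
Nfkbie: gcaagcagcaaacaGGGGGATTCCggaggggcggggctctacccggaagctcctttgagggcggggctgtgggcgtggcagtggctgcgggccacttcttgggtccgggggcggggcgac
Traf1: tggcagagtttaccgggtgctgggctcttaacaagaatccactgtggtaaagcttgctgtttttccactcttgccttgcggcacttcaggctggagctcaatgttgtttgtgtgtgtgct
Tnfaip2: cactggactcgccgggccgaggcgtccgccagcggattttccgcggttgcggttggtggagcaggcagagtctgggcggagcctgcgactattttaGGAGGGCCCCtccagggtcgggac

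Within 250 bases upstream, the kappaB consensus was present in a window of 5 of the 8 genes (Nfkb2, Rel, Nfkbia, Nfkbie and Tnfaip2), and in 7.25% of all 32851 windows of that length. On Nfkb2 the consensus matched between 39 and 29 bases before the start, on both strands in overlapping positions, and again between 11 and 2 bases before it. TGACG was present for Nfkb2 and Rel and in 17.8% of all windows. The full palindrome TGACGTCA was in none of the 8 genes' windows and in 1.55% of all windows. The windows of Rela, Bcl3 and Traf1 held no match to the consensus. These are matches of letters in short windows, not measured binding.

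PGE2 at 4 h was compared with untreated cells to ask how the prostaglandin alone moved these genes. Transcripts of 6 of the 10 rose, while 5.22% of the 5744 genes tested rose and 3.33% fell. In numbers these were 300 and 191 genes, and 237 and 330 with library totals alone as the scale, where the median of all genes moved from -0.01 to -0.13 and the same number of the 10 rose. They were Nfkb2, Relb, Nfkbia, Nfkbie, Traf1 and Tnfaip2. None of the 10 fell. The median log2 fold change of the 10 was 1.24, and that of all tested genes was -0.01.

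Among the subunits, those of the non-canonical pathway rose. Relb, which pairs with p52, stood at 16, 38.6, 35.9 and 24.9 CPM in untreated libraries A to D and at 126, 83.6, 103 and 51.9 CPM after PGE2. All 4 PGE2 libraries lay above all untreated ones, and the log2 fold change was 1.54 ± 0.34 (SE, n = 4 per group, adjusted p = 0.000248, edgeR). Nfkb2, which encodes p100 and its product p52, stood at 63.8, 38.6, 32.9 and 33.2 CPM untreated and at 82.6, 139, 121 and 57.7 CPM after PGE2. The lowest PGE2 library (D) lay below the highest untreated one (A), which was 1 of the 2 shallow libraries, and the log2 fold change was 1.48 ± 0.32 (adjusted p = 0.000193).

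The 3 subunits of the canonical pathway did not pass the test. Nfkb1, which encodes p105 and p50, averaged 95.9 ± 24.4 CPM (SD, n = 4) untreated and 103 ± 6.31 CPM after PGE2. Its log2 difference of 0.01 had a 95% interval from -0.48 to 0.50. Rela, the main transactivating subunit, ran from 111 to 128 CPM untreated and from 141 to 199 CPM after PGE2. These groups did not overlap, but the difference of 0.49 ± 0.22 had an adjusted p of 0.169. Rel, which encodes c-Rel, differed by 0.35 (95% interval -0.33 to 1.04), and its untreated libraries spread from 24.9 to 144 CPM, the highest being shallow library A with 9 counts. Without the shallow libraries the difference of Rel was 0.61 (adjusted p = 0.349).

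Both IkB inhibitors rose. Nfkbie, which encodes IkB-epsilon, went from 31.9, 24.6, 32.9 and 13.8 CPM in untreated libraries A to D to 126, 112, 96.5 and 92.3 CPM. Every PGE2 library was well above every untreated library. Its fold of 4.36 (log2 2.12 ± 0.34, adjusted p = 2.24e-07) was the largest of the 10. Nfkbia, which encodes IkB-alpha, stood at 303, 168, 230 and 196 CPM untreated and at 408, 402, 404 and 265 CPM after PGE2. Its PGE2 library D lay apart from the other 3 and below untreated library A, and the log2 fold change was 0.84 ± 0.17 (adjusted p = 4.99e-05).

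Bcl3, an atypical IkB protein that acts in the nucleus with p50 or p52, was close to the limit of the depth, with 9 counts over the 4 untreated libraries and 28 after PGE2. It stood at 0, 14, 8.98 and 5.53 CPM untreated and at 63.2, 31.9, 15.1 and 11.5 CPM after PGE2. The PGE2 library D lay below untreated B, and the log2 difference of 1.74 ± 0.62 missed the threshold (adjusted p = 0.0591). It passed without PGE2 library C (0.0284) or D (0.0319), and over the alternatives that gave an adjusted p the range was 0.0284 to 0.4. With only the groups compared in the fit, Bcl3 failed the filter on low counts and had no adjusted p.

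Both targets rose. Traf1, an adaptor of TNF receptors, stood at 128, 31.6, 50.9 and 33.2 CPM untreated and at 87.5, 147, 160 and 98.1 CPM after PGE2. The shallow untreated library A lay inside the PGE2 range and the other 3 below it. The log2 fold change was 1.48 ± 0.30 (adjusted p = 5.42e-05), and 1.70 without the shallow libraries. Tnfaip2, a gene known for its induction by TNF, rose by 0.99 ± 0.17 (adjusted p = 1.27e-06), from 207, 189, 209 and 180 to 423, 362, 455 and 283 CPM, with no overlap between the groups.

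**Figure D1:**
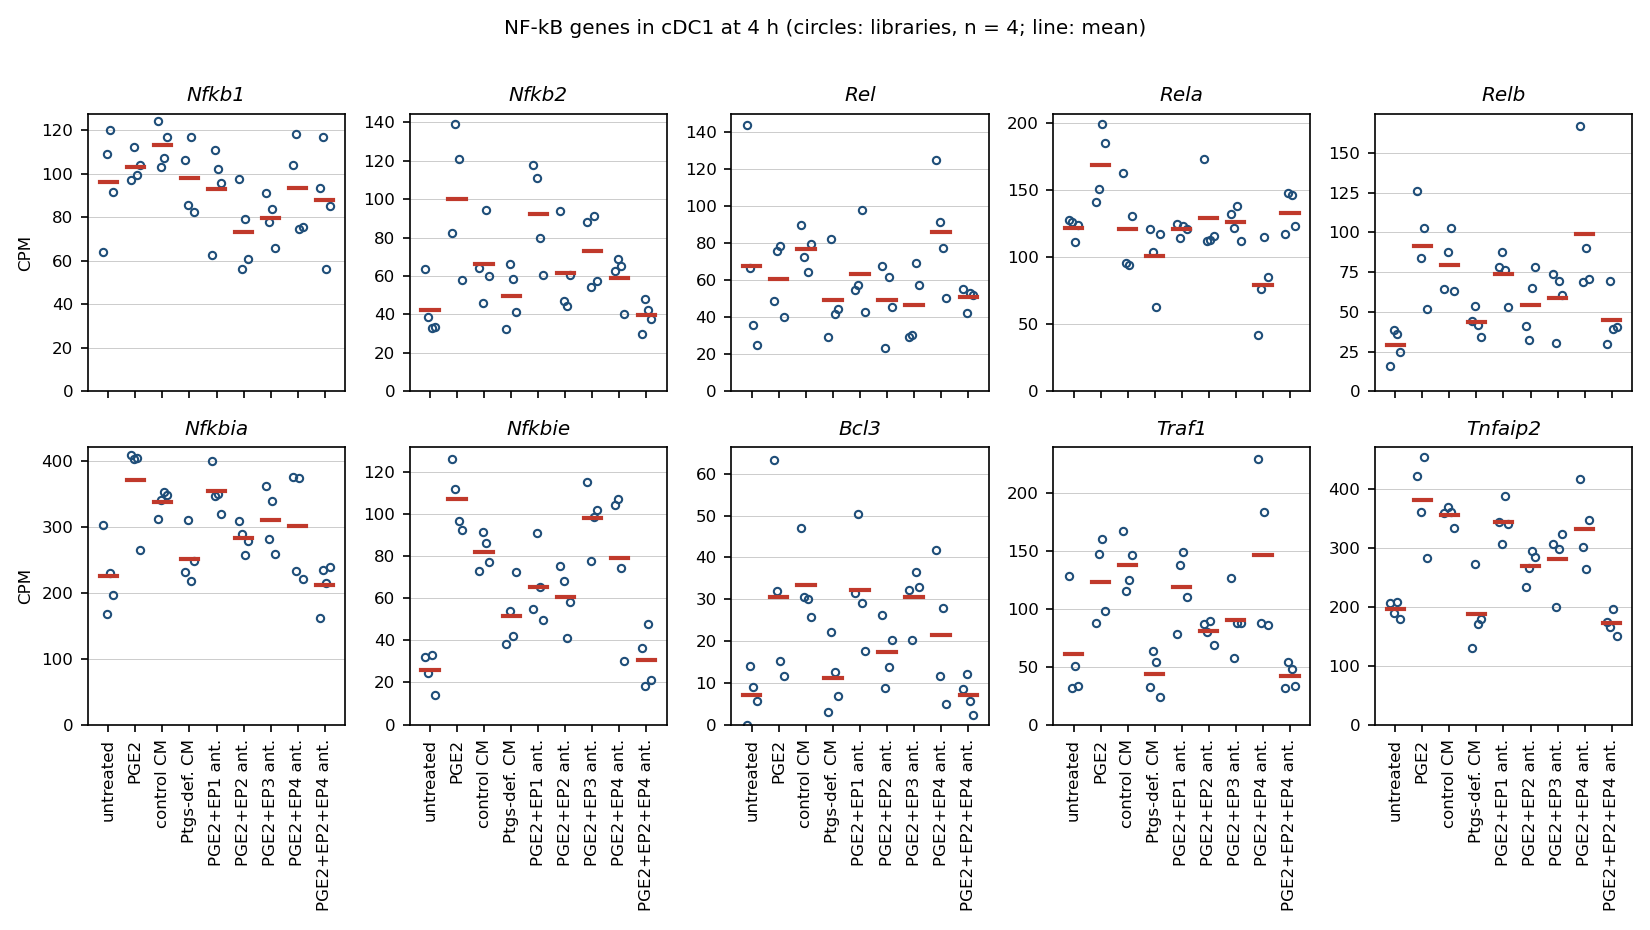
Level of each gene in CPM (vertical axes from 0, a scale per gene) in the 9 groups at 4 h. Circles are single libraries, A to D from left to right, and lines are group means. Relb, Nfkbie, Traf1 and Tnfaip2 are higher after PGE2 and after control CM than in untreated cells and in the combined antagonist group, while Nfkb1 shows no such pattern.

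Of 74 other genes of the pathway listed by role, 49 were tested at 4 h. PGE2 raised 13 and lowered 2 of them, and their median log2 fold change was 0.38. Other target genes rose in 8 of 21 cases, among them the cytokine gene Il1b (2.84 ± 0.38), the survival gene Bcl2a1d (1.98 ± 0.40) and the maturation marker Cd83 (1.94 ± 0.23). Reads of Bcl2a1d, and of Bcl2a1b named below, can be split with near-identical copies. Of 7 further inhibitors, 3 rose and none fell. Among 17 adaptors and kinases 1 rose and 2 fell, namely Tab1 (-2.30 ± 0.61), which encodes an activator of the kinase TAK1, and Myd88 (-0.99 ± 0.21), which encodes the adaptor of most toll-like receptors. Summed cDC1 markers were lower after PGE2, at 4226 ± 349 CPM, than in untreated cells, at 8025 ± 312 CPM. The cDC2 marker sum was 56.5 ± 25.6 CPM untreated and 75.6 ± 34.9 CPM after PGE2, and that of 10 macrophage and monocyte markers 1272 ± 264 and 1123 ± 118 CPM. The part of these shifts in the results was not tested, and fewer cells of a type and less RNA per cell cannot be told apart in bulk samples.

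Control CM was set against untreated cells and against Ptgs-deficient CM, which asks how tumour medium moved the genes and how much of the difference went with the tumour cells' prostaglandin synthases. These comparisons and that of PGE2 share the untreated libraries. Control CM raised 6 of the 10 genes, while 4.77% of all tested genes rose and 2.72% fell (274 and 156 genes, and 228 and 238 with library totals alone). They were Relb, Nfkbia, Nfkbie, Bcl3, Traf1 and Tnfaip2, and none fell. The median of the 10 was 0.84.

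Relb stood at 64.2, 87.8, 103 and 62.8 CPM in control CM libraries A to D, all above the untreated range, with a log2 fold change of 1.30 ± 0.34 (adjusted p = 0.0042). Nfkbie stood at 72.7, 91.6, 86 and 77 CPM, again all above untreated cells (1.74 ± 0.35, adjusted p = 6.1e-05). Traf1 reached 167, 115, 125 and 146 CPM (1.60 ± 0.29, adjusted p = 8.16e-06). Only the shallow untreated library A came within its range. Nfkbia (0.70 ± 0.17) and Tnfaip2 (0.87 ± 0.17) rose with little spread between the CM libraries, which ran from 312 to 352 and from 334 to 370 CPM.

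Bcl3 stood at 47.1, 30.5, 30.1 and 25.7 CPM, with every CM library above every untreated one. Its log2 fold change was 1.88 ± 0.60 (adjusted p = 0.029). The call was lost without the filter on low counts and without CM A, untreated C or untreated D. Over the alternatives that gave an adjusted p, it ran from 0.0304 to 0.127. With only the groups compared in the fit, Bcl3 failed that filter and had no adjusted p. Its place among the genes tested thus rests on libraries of other groups too. Nfkb2 differed by 0.82 ± 0.34 in control CM and did not pass (adjusted p = 0.139). Rel differed by 0.63 and Nfkb1 by 0.14, also without passing, and Rela by 0.00 (95% interval -0.44 to 0.44).

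In Ptgs-deficient CM none of the 10 passed against untreated cells by edgeR or by DESeq2, where 0.087% of all tested genes were called in either direction. At an unadjusted p below 0.05 there was 1, as for 6.28% of all tested genes. It was Nfkbie, at 38.4, 53.8, 41.8 and 72.2 CPM. All 4 of these libraries lay above the untreated ones, and the log2 difference was 1.09 ± 0.37 (adjusted p = 0.367, 95% interval 0.36 to 1.82).

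Directly compared, control CM was higher than Ptgs-deficient CM for 2 of the 10 genes, both of them targets. Of all tested genes 2.33% were higher and 1.51% lower (134 and 87 genes, and 118 and 120 with library totals alone). Traf1 stood at 32.5, 63.3, 54.3 and 24.1 CPM in Ptgs-deficient CM, so that the groups did not overlap (1.66 ± 0.28, adjusted p = 4.38e-06). Tnfaip2 stood at 130, 272, 171 and 179 CPM there, against 359, 370, 361 and 334 CPM in control CM (0.91 ± 0.16, adjusted p = 1.67e-05). The differences of Relb (0.83, 95% interval 0.22 to 1.44), Nfkbie (0.65, 0.08 to 1.23), Nfkbia (0.42, 0.11 to 0.73) and Bcl3 (1.53, 0.45 to 2.61) were positive and did not pass over all genes. Without Ptgs-deficient library B, which was the highest of its group for Relb, Nfkbia, Bcl3, Traf1 and Tnfaip2, Nfkbia (0.55, adjusted p = 0.037) and Bcl3 (2.17, adjusted p = 0.0284) passed as well. Over the alternatives that gave an adjusted p, it ranged from 0.037 to 0.61 for Nfkbia and from 0.0284 to 0.404 for Bcl3. With only the groups compared in the fit, Bcl3 failed the filter on low counts and had no adjusted p.

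**Figure D2:**
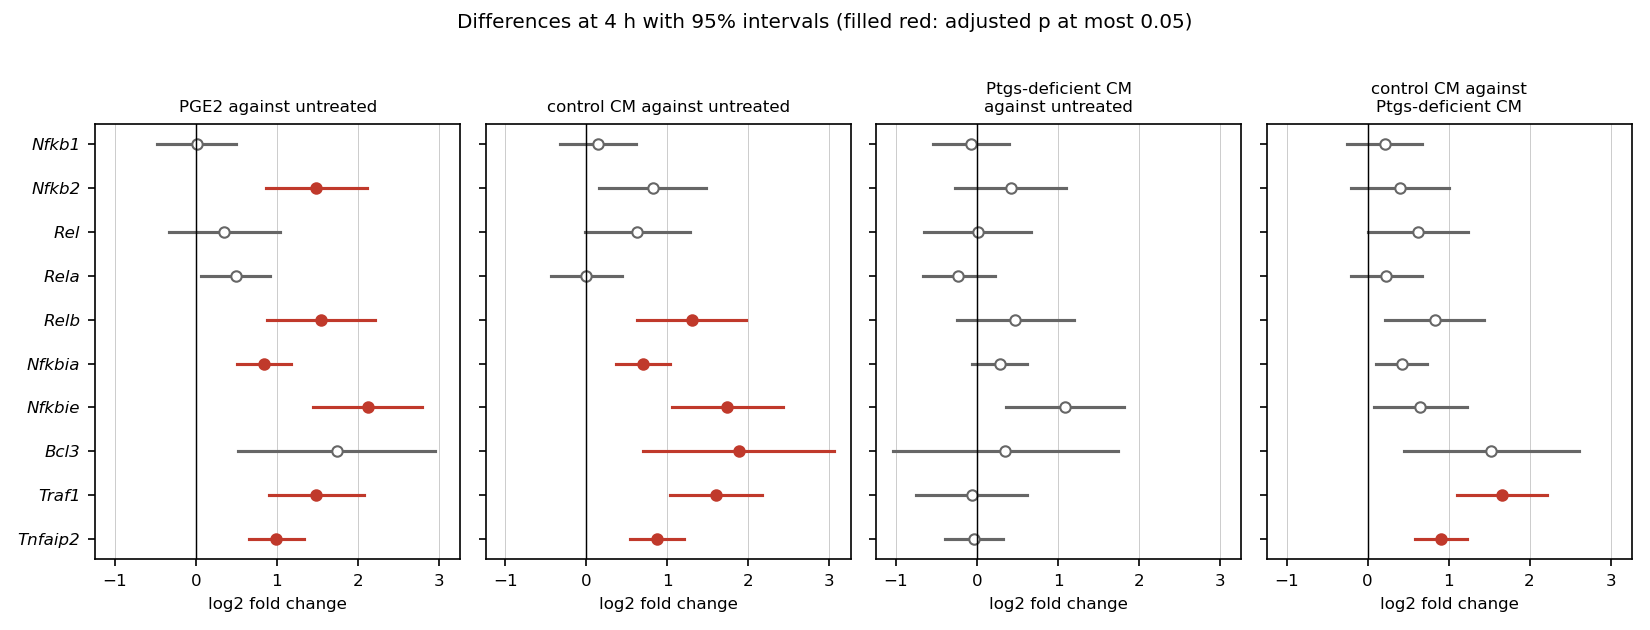
Log2 fold changes of the 10 genes (horizontal axes) with 95% intervals for 4 comparisons at 4 h. Filled red points passed an adjusted p of 0.05. In Ptgs-deficient CM every interval but that of Nfkbie spans 0, and against that medium control CM raised Traf1 (1.66) and Tnfaip2 (0.91).

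In the pathway list, control CM raised 10 and lowered 1 of 49 genes against untreated cells. Il1b (2.59 ± 0.38), Cd83 (2.30 ± 0.23) and Nfkbiz, which encodes another nuclear IkB protein (2.30 ± 0.73), rose, and Myd88 fell (-0.87 ± 0.20). None of the 49 passed in Ptgs-deficient CM, with 4 at an unadjusted p below 0.05 by edgeR, or 8.16% beside 6.28% of all tested genes. Between the media 5 were higher and 0 lower in control CM, among them Il1b (1.79 ± 0.33), Cd83 (1.64 ± 0.20) and Map3k14, the kinase NIK of the non-canonical pathway (1.54 ± 0.33). Control CM libraries summed to 5357 ± 230 CPM over the cDC1 markers, and Ptgs-deficient CM libraries to 7967 ± 1204 CPM. Their part in the differences was not tested.

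The antagonists were added to ask through which PGE2 receptors the genes responded. No group received an antagonist without PGE2, so effects of the compounds themselves cannot be told apart from receptor blockade. EP2 and EP4 are the receptors known to raise cAMP. All comparisons with PGE2 alone share its 4 libraries. None of the 10 genes passed with any single antagonist, by edgeR or DESeq2. Of all tested genes, 0% were called for the EP1 antagonist, 0.418% for EP2, 0.087% for EP3 and 0.0348% for EP4, in either direction. Unadjusted p-values below 0.05 were reached by 2 of the 10 genes for EP1, 8 for EP2, 4 for EP3 and 3 for EP4. Of all tested genes 4.7%, 9.44%, 8.65% and 5.87% had such a p in these comparisons. For EP1 that was 270 genes, and DESeq2 called 0.

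With the EP2 antagonist all 10 genes were below PGE2 alone in the fit, though none passed. Their log2 differences ran from -0.39 (Rel) to -0.82 (Nfkbie), with a median of -0.60, beside 0.01 for all tested genes. Tnfaip2 stood at 233, 266, 295 and 285 CPM in that group. PGE2 library D, at 283 CPM, lay among them and the other 3 PGE2 libraries above. Its difference of -0.52 ± 0.15 had an adjusted p of 0.122. It passed when only the groups compared were fitted (-0.53, adjusted p = 0.0152) and without PGE2 library D (-0.64, adjusted p = 0.0414), with a range of 0.0152 to 0.547 over the alternatives. Nfkbie stood at 75.1, 67.9, 41.1 and 58.1 CPM, all below the 4 PGE2 libraries (-0.82 ± 0.27, adjusted p = 0.202).

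With the EP4 antagonist Traf1 and Relb did not differ detectably from PGE2 alone (0.07, 95% interval -0.44 to 0.58, and -0.12, -0.70 to 0.47). In both cases the shallow library A of that group was the highest, at 229 CPM for Traf1 and 167 CPM for Relb. Rela had the largest difference, -0.91 ± 0.24 (adjusted p = 0.2), at 41.7, 76.4, 115 and 85.5 CPM. That is below all 4 PGE2 libraries, and without the shallow libraries the difference was -0.86 (adjusted p = 0.344). The EP1 and EP3 antagonist groups had their largest differences for Nfkbie (-0.66) and Relb (-0.67).

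In the combined antagonist group 7 of the 10 genes fell against PGE2 alone, where 5.36% of all tested genes fell and 4.2% rose (308 and 241 genes, and 259 and 388 with library totals alone). They were Nfkb2, Relb, Nfkbia, Nfkbie, Bcl3, Traf1 and Tnfaip2, and none rose. The median of the 10 was -1.13. Among the subunits, Nfkb2 stood at 29.7, 48.2, 42.1 and 37.8 CPM, below every PGE2 library (-1.41 ± 0.29, adjusted p = 8.53e-05). Relb stood at 29.7, 69.2, 39.3 and 40.2 CPM (-1.09 ± 0.29, adjusted p = 0.00528). Its library B lay above PGE2 library D and the others below.

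Of the inhibitors, Nfkbie stood at 36.1, 18.1, 47.8 and 21.3 CPM (-1.77 ± 0.29, adjusted p = 7.32e-07), and Nfkbia at 161, 235, 214 and 239 CPM (-0.83 ± 0.16, adjusted p = 1.45e-05), in both cases below all PGE2 libraries. Bcl3 fell by 2.03 on the log2 scale (SE 0.58, adjusted p = 0.0105). Its 4 libraries held 11 counts in all, and the call was lost without PGE2 library A (-1.46, adjusted p = 0.184, the highest over the alternatives, whose lowest was 0.0049) or combined library D (adjusted p = 0.0517). DESeq2 gave Bcl3 no adjusted p in this comparison and called the other 6 genes. Bcl3 had no adjusted p either with only the groups compared in the fit, where it failed the filter on low counts. The targets Traf1, at 31.9, 54.2, 47.8 and 33.1 CPM (-1.64 ± 0.27, adjusted p = 1.09e-06), and Tnfaip2, at 174, 166, 197 and 151 CPM (-1.17 ± 0.16, adjusted p = 1.69e-09), had no overlap with PGE2. Nfkb1 (-0.23), Rel (-0.31) and Rela (-0.37) did not pass.

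Against untreated cells, none of the 10 passed in the combined antagonist group by edgeR or DESeq2, and none had an unadjusted p below 0.05. Of all tested genes 0.783% were called. The differences ran from -0.29 (Bcl3) to 0.46 (Relb), and the 95% interval of Relb, -0.24 to 1.15, did not exclude a remaining difference.

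The combined group was also compared with each single antagonist, comparisons added after the values had been seen. Against the EP2 antagonist it was lower for 2 genes, Tnfaip2 (-0.65 ± 0.16, adjusted p = 0.00678) and Traf1 (-0.96 ± 0.28, adjusted p = 0.0429), with 1.55% of all tested genes lower and 0.592% higher (89 and 34 genes, and 74 and 51 with library totals alone). The call of Traf1 was lost under DESeq2, with library totals alone, without the filter and without any single library of the 2 groups but combined B (adjusted p 0.0239 to 0.189 over all of them). Nfkbie (-0.95 ± 0.31, adjusted p = 0.078) passed without combined library C alone (0.0405, the lowest over the alternatives, the highest being 0.28). Against the EP4 antagonist it was lower for 4 genes, with 3.5% of all tested genes lower and 2.02% higher (201 and 116 genes, and 172 and 186 with library totals alone): Traf1 (-1.70 ± 0.28, adjusted p = 2.48e-06), Tnfaip2 (-0.88 ± 0.17, adjusted p = 7.17e-05), Nfkbie (-1.29 ± 0.32, adjusted p = 0.00385) and Relb (-0.97 ± 0.31, adjusted p = 0.0404). Relb lost its call without the shallow libraries (-0.83, adjusted p = 0.117), with library totals alone, without the filter, and without combined A, C or D or EP4 antagonist A or C (range over the alternatives 0.0139 to 0.172), and Nfkbie without EP4 antagonist library B (adjusted p = 0.123, range 0.00052 to 0.123). Nfkbia (-0.48, adjusted p = 0.075) passed without EP4 antagonist library B or D (range 0.0362 to 0.669). Because of the conflicting treatment label, which antagonists the combined group received besides L161,982 cannot be told apart from the labels.

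**Figure D3:**
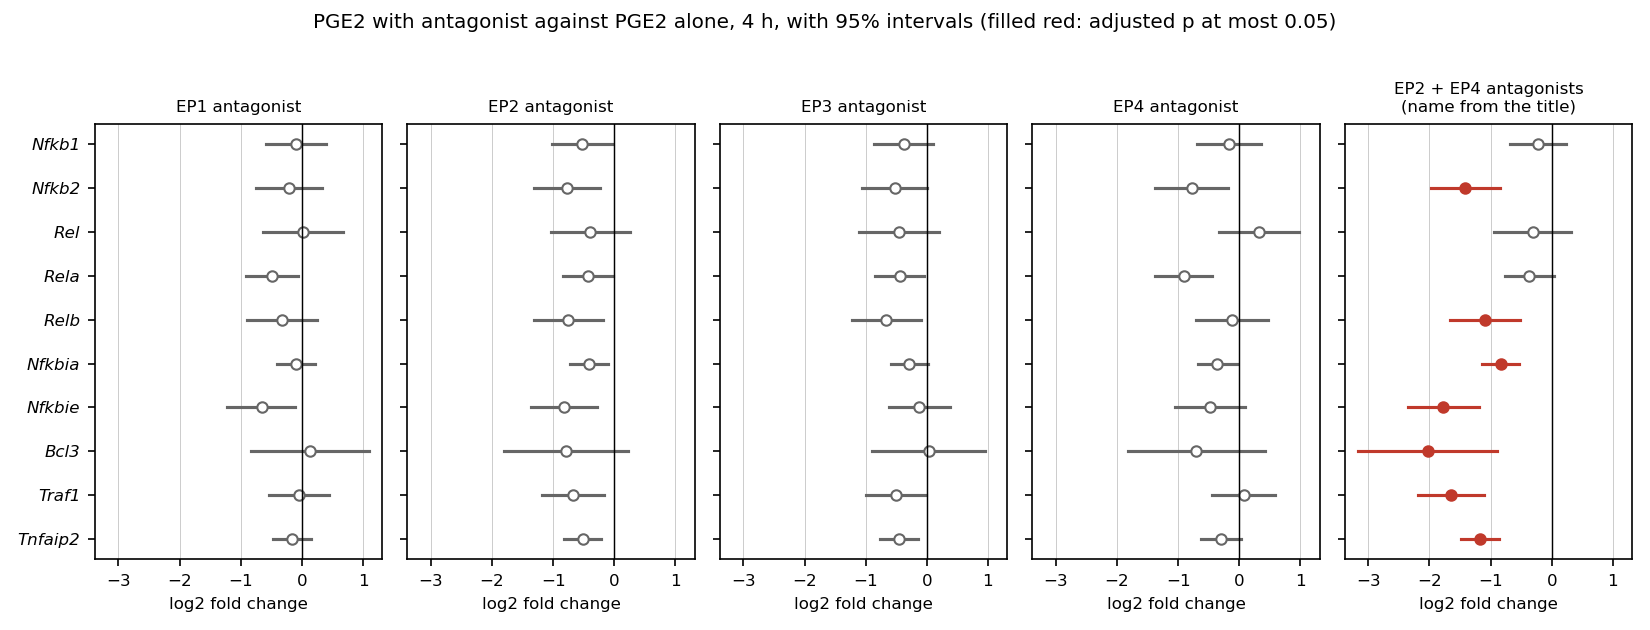
Log2 difference of each gene (horizontal axes) between PGE2 with an antagonist and PGE2 alone at 4 h, with 95% intervals. Filled red points passed an adjusted p of 0.05. Points are filled for 7 genes in the combined antagonist group and for none with a single antagonist.

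Of the 49 pathway genes the combined group lowered 13 and raised 2 against PGE2 alone, with a median of -0.35. Il1b (-2.59 ± 0.33), the TNF receptor gene Tnfrsf1b (-1.89 ± 0.47) and Cd83 (-1.60 ± 0.21) fell, and Myd88 (0.69 ± 0.20) and Slfn2 (0.48 ± 0.16) rose. The EP2 antagonist alone lowered 2, Il1b (-2.12 ± 0.32) and Bcl2a1b (-1.63 ± 0.40). Summed cDC1 markers of the combined group stood at 6454 ± 214 CPM, above the 4226 ± 349 CPM of PGE2 alone, and the macrophage and monocyte sum at 1560 ± 173 CPM beside 1123 ± 118. Their part in the differences was not tested.

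The levels at 4 h were ordered by group mean. For Nfkbie the order was PGE2 (107 ± 15.5 CPM), EP3 antagonist (98.1 ± 15.2), control CM (81.8 ± 8.54), EP4 antagonist (79 ± 35.7), EP1 antagonist (65.2 ± 18.3), EP2 antagonist (60.6 ± 14.7), Ptgs-deficient CM (51.6 ± 15.3), combined antagonists (30.8 ± 13.8) and untreated cells (25.8 ± 8.81). Neighbours in that order lay within the larger SD of the pair, except EP3 antagonist and control CM, and Ptgs-deficient CM and combined antagonists. For Relb the order was EP4 antagonist (99 ± 46.1 CPM), PGE2 (91.1 ± 31.4), control CM (79.5 ± 19.5), EP1 antagonist (73.8 ± 14.6), EP3 antagonist (58.4 ± 19.4), EP2 antagonist (54.3 ± 21.1), combined antagonists (44.6 ± 17.1), Ptgs-deficient CM (43.6 ± 8.02) and untreated cells (28.8 ± 10.4), where only the last step exceeded the larger SD of its pair.

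After 24 h of PGE2, 5 of the 10 genes were higher than in untreated cells of that time, while 4.75% of the 5263 genes tested were higher and 3.29% lower. They were Rel, Relb, Nfkbia, Bcl3 and Traf1, and none fell. The median was 0.66, beside 0.03 for all genes. Relb stood at 44.9, 64.7, 52.6 and 27.5 CPM untreated and at 134, 121, 80.7 and 101 CPM after PGE2 (1.22 ± 0.21, adjusted p = 3.32e-06). Traf1 went from 36.5, 44.1, 52.6 and 48.1 CPM to 122, 80.9, 119 and 101 CPM (1.25 ± 0.21, adjusted p = 1.29e-06). Neither gene's groups overlapped.

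Nfkbia rose from 157, 215, 164 and 182 CPM to 297, 272, 239 and 317 CPM (0.66 ± 0.13, adjusted p = 4.77e-05), without overlap. Bcl3 stood at 11.2, 8.83, 14.6 and 10.3 CPM untreated and at 40.7, 31.8, 25.8 and 30.2 CPM after PGE2 (1.51 ± 0.43, adjusted p = 0.011). All 4 PGE2 libraries were above all untreated ones, but the call was lost without the filter and without PGE2 library A (adjusted p = 0.0667). That was the highest over the alternatives that gave an adjusted p, the lowest being 0.00987. With only the groups compared in the fit, Bcl3 failed the filter on low counts and had no adjusted p. It passed that filter at 24 h through the poly I:C groups. For Rel the values were 22.5, 38.3, 40.9 and 27.5 CPM and 72.7, 49.1, 71 and 35.3 CPM, and PGE2 library D lay within the untreated range. Its call (0.88 ± 0.30, adjusted p = 0.0427) was lost without PGE2 library A or C or untreated library A or D and under 5 other settings, DESeq2 among them, with adjusted p from 0.0224 to 0.187 over the alternatives.

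Nfkb2 (0.66 ± 0.27, adjusted p = 0.12), Tnfaip2 (0.42 ± 0.16, adjusted p = 0.118), Nfkbie (0.57 ± 0.28, adjusted p = 0.245), Rela (0.33) and Nfkb1 (-0.02) did not pass at 24 h. Without PGE2 library B both Nfkb2 (0.92, adjusted p = 0.0232) and Tnfaip2 (0.57, adjusted p = 0.00469) did, as did Tnfaip2 without untreated library D. Over the alternatives their adjusted p ranged from 0.0232 to 0.445 and from 0.00469 to 0.394.

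The PGE2 effects at 24 h and 4 h were compared in a fit over untreated and PGE2 cells of both times, with 9 of the 10 genes tested. The effect on Nfkbie was smaller at 24 h (difference -1.57 ± 0.46, adjusted p = 0.0276), where 2.26% of all tested genes had a smaller and 2.1% a larger effect (122 and 113 genes, and 90 and 174 with library totals alone). Its untreated libraries at 24 h, at 42.1, 35.3, 64.3 and 27.5 CPM, overlapped the PGE2 libraries of that time, at 49.4, 69.4, 74.3 and 55.4 CPM. The call was lost without the filter and in 4 of the fits that left out a library, namely PGE2 A of either time, untreated C at 24 h or untreated D at 4 h, and its adjusted p ranged from 0.0154 to 0.136. For Tnfaip2 (-0.60 ± 0.22, adjusted p = 0.123, and below 0.05 without PGE2 C at 24 h or PGE2 D at 4 h, range 0.0306 to 0.337) and Nfkb2 (-0.84 ± 0.44, adjusted p = 0.356) the difference did not pass. Tnfaip2 was itself higher in untreated cells at 24 h than at 4 h (0.57 ± 0.17, adjusted p = 0.0258), where 2.3% of all tested genes were higher and 1.98% lower, and this call was lost without the filter and without untreated C or D at 24 h or B or D at 4 h (adjusted p 0.00822 to 0.185 over the alternatives). Time and any batch that went with it cannot be told apart.

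In the pathway list at 24 h PGE2 raised 15 and lowered 1 of 53 genes tested. Map3k14 (1.89 ± 0.32), the early response gene Ier3 (1.65 ± 0.24) and the chemokine receptor gene Ccr7 (1.64 ± 0.13) rose, and Slfn2 fell (-0.41 ± 0.13). Summed cDC1 markers were 7734 ± 198 CPM untreated and 4349 ± 60.8 CPM after PGE2. The macrophage and monocyte marker sum was 1460 ± 183 and 1955 ± 162 CPM, of which Lyz2 made 1078 and 1521 CPM on average. Nearly all the rest came from listed markers not named here, as Mertk was at 0 in both groups and Adgre1 averaged 0.731 and 0.807 CPM. The cDC2 sum was 92.5 ± 20.1 and 207 ± 28.2 CPM, with Cd209a at 78.8 and 107 CPM and Cd7 at 4.49 and 50.1 CPM. The part of these cells or genes in the results was not tested.

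Poly I:C, given to ask how a TLR3 signal moved the genes, raised all 10. In that comparison 31.2% of all tested genes rose and 33.8% fell (1640 and 1781 genes). The median of the 10 was 3.45, beside -0.10 for all genes. With library totals alone as the scale the median of all genes moved to -0.88 and the numbers to 974 and 3081, and the 10 genes still rose, by 0.55 (Tnfaip2) to 5.10 (Traf1). Libraries with and without poly I:C did not overlap for any of the 10. The matching share of all tested genes is not given here.

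Traf1 had the largest fold. It stood at 2832, 2904, 2827 and 2807 CPM after poly I:C, 58.5-fold above untreated cells (log2 5.87 ± 0.14, adjusted p = 6.31e-94). Relb reached 1808, 1660, 1959 and 1770 CPM, a fold of 34.8 (5.12 ± 0.15), and Nfkbia 3724, 3581, 3835 and 4194 CPM, a fold of 20.1 (4.33 ± 0.11). Nfkb2 rose by 3.99 ± 0.19, Rel by 3.51 ± 0.22, Bcl3 by 3.39 ± 0.35, Nfkbie by 3.28 ± 0.21 and Nfkb1 by 2.48 ± 0.18. Tnfaip2 (1.32 ± 0.16) and Rela (1.91 ± 0.18) had the smallest increases. In the pathway list 43 of 53 genes rose and 4 fell. Cxcl10 (7.44 ± 0.14), Cd40 (6.40 ± 0.17) and Ccr7 (6.18 ± 0.11) rose most, and the adaptor gene Card9 (-1.73 ± 0.70), the kinase gene Irak4 (-1.53 ± 0.47) and the deubiquitinase gene Cyld (-0.90 ± 0.33) fell. Summed cDC1 markers were 4564 ± 365 CPM after poly I:C, beside 7734 ± 198 untreated, and the macrophage and monocyte sum was 651 ± 85.7 CPM, beside 1460 ± 183. The cDC2 sum was 18.1 ± 7.72 CPM, beside 92.5 ± 20.1. The sum of 6 plasmacytoid dendritic cell markers was higher, 718 ± 89.6 CPM beside 139 ± 28.1, of which Bst2 made 623 and 101 CPM. Their part in the increases was not tested.

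PGE2 with poly I:C was compared with poly I:C alone to ask whether PGE2 changed the genes of cells activated in this way. There 6 of the 10 genes were higher, while 5.04% of all tested genes were higher and 5.62% lower. They were Rel, Relb, Nfkbia, Nfkbie, Bcl3 and Tnfaip2, and none fell. The median of the 10 was 0.39, beside -0.01 for all genes.

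Nfkbia stood at 5878, 5483, 5494 and 6099 CPM with both agents, above the 3581 to 4194 CPM of poly I:C alone (0.58 ± 0.08, adjusted p = 3.36e-09). Bcl3 more than doubled, from 162, 98.3, 156 and 107 CPM to 265, 286, 233 and 395 CPM (fold 2.28, log2 1.19 ± 0.22, adjusted p = 5.96e-06). Neither gene's groups overlapped. Tnfaip2 stood at 754, 596, 980 and 747 CPM with poly I:C and at 1444, 1449, 1432 and 1829 CPM with both (1.00 ± 0.14, adjusted p = 4.27e-07), again without overlap.

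Rel stood at 449, 370, 331 and 439 CPM with poly I:C and at 454, 657, 693 and 575 CPM with both (0.59 ± 0.15, adjusted p = 0.00299), where library A with both agents was just above the highest with poly I:C alone. Relb rose to 2189, 2326, 2125 and 2457 CPM, without overlap (0.34 ± 0.10, adjusted p = 0.00788). Its call was lost without the filter and without the library D given both (0.067, the highest adjusted p over the alternatives, the lowest being 0.00083). Nfkbie was at 677, 359, 375 and 402 CPM with poly I:C and at 577, 613, 517 and 711 CPM with both. Poly I:C library A stood apart and overlapped the other group. The call (0.44 ± 0.15, adjusted p = 0.0401) was lost under DESeq2, with library totals alone, without the filter and in 6 of the 8 fits that left out a library, those without A, B or D given both and those without poly I:C B, C or D, with adjusted p from 0.00191 to 0.226.

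The other 4 genes did not differ detectably between poly I:C with and without PGE2. The 95% interval of the log2 difference was -0.26 to 0.25 for Nfkb2, -0.44 to 0.16 for Nfkb1, -0.48 to 0.16 for Rela and -0.24 to 0.11 for Traf1. Traf1 stood at 2791, 2701, 2744 and 2581 CPM with both agents, where all 4 libraries were below those with poly I:C alone.

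**Figure D4:**
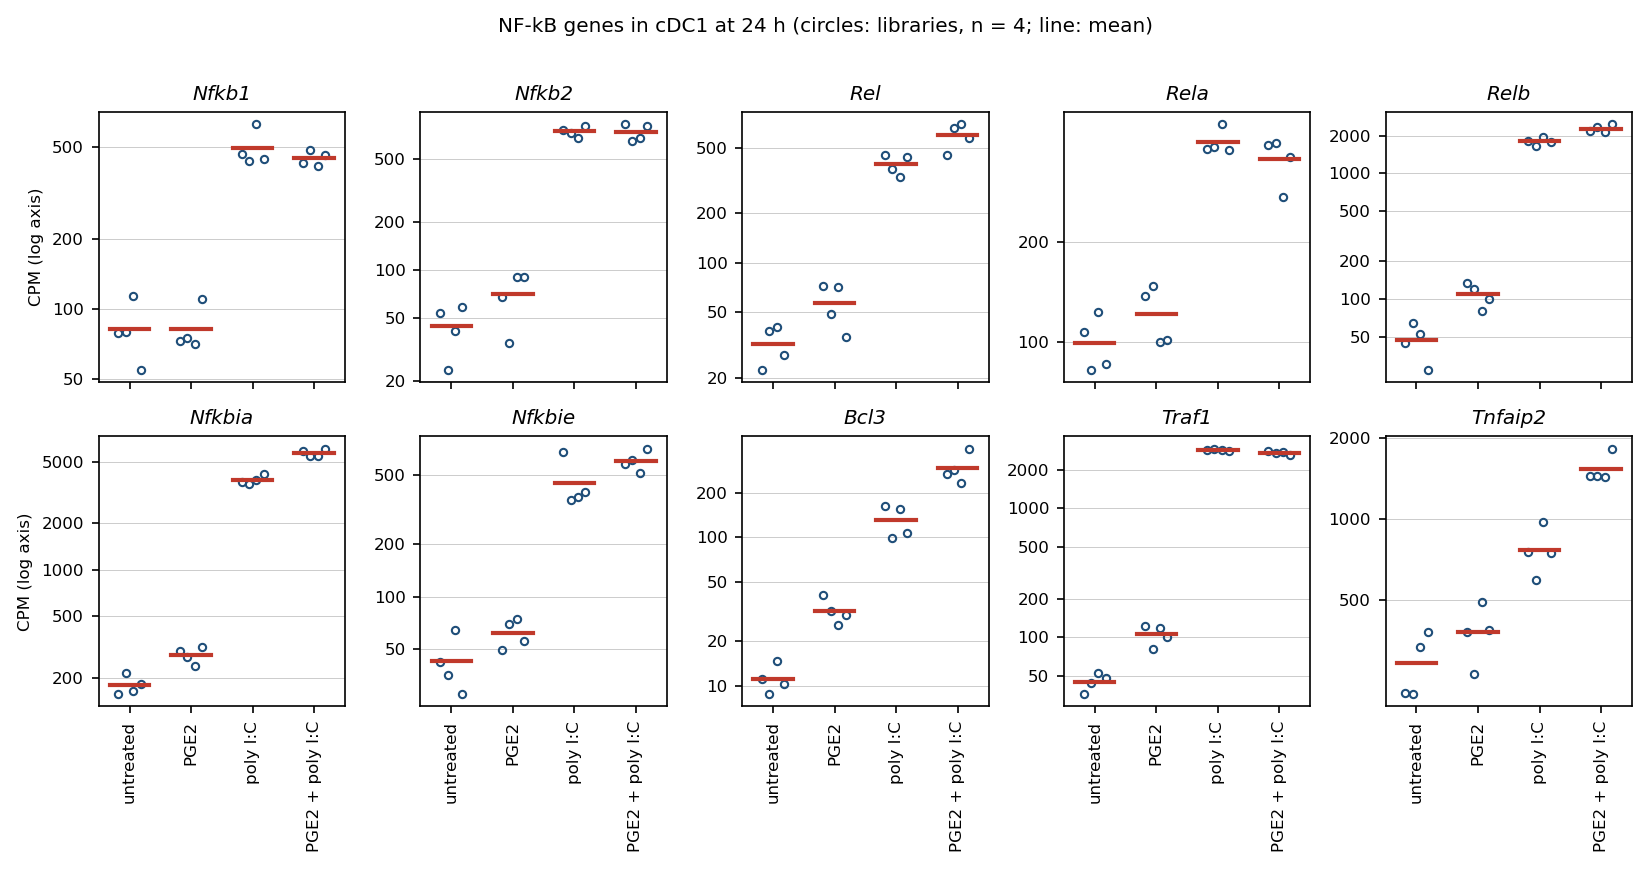
Level of each gene in CPM (log axes, a scale per gene) in the 4 groups at 24 h. Circles are single libraries, A to D from left to right, and lines are group means. All 10 genes are higher with poly I:C, and Nfkbia, Bcl3 and Tnfaip2 are higher still with PGE2 and poly I:C.

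Whether the PGE2 effect differed between cells with and without poly I:C was tested as an interaction. On the log2 scale the effect was smaller with poly I:C for 2 of the 10 genes. Of all tested genes 2.41% had a lower and 0.855% a higher effect. For Traf1 the difference was -1.32 ± 0.23 (adjusted p = 1.1e-05), from 1.25 without to -0.07 with poly I:C, and it passed under every alternative run (adjusted p 3.95e-06 to 0.000391). For Relb it was -0.88 ± 0.24 (adjusted p = 0.0144), from 1.22 to 0.34. That call was lost without the filter and without PGE2 A, PGE2 B or untreated D (adjusted p 0.00402 to 0.132 over the alternatives). In CPM, the group means of Relb went from 47.4 to 109 with PGE2 alone and from 1799 to 2274 under poly I:C, the larger step. For Tnfaip2 the difference was positive, 0.58 ± 0.21, and did not pass (adjusted p = 0.141, range 0.013 to 0.333). It passed without PGE2 C, poly I:C C, untreated A or untreated B. For Nfkbia the difference was -0.08 (95% interval -0.38 to 0.22), and for Nfkb2 -0.66 (-1.25 to -0.08, adjusted p = 0.254).

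**Figure D5:**
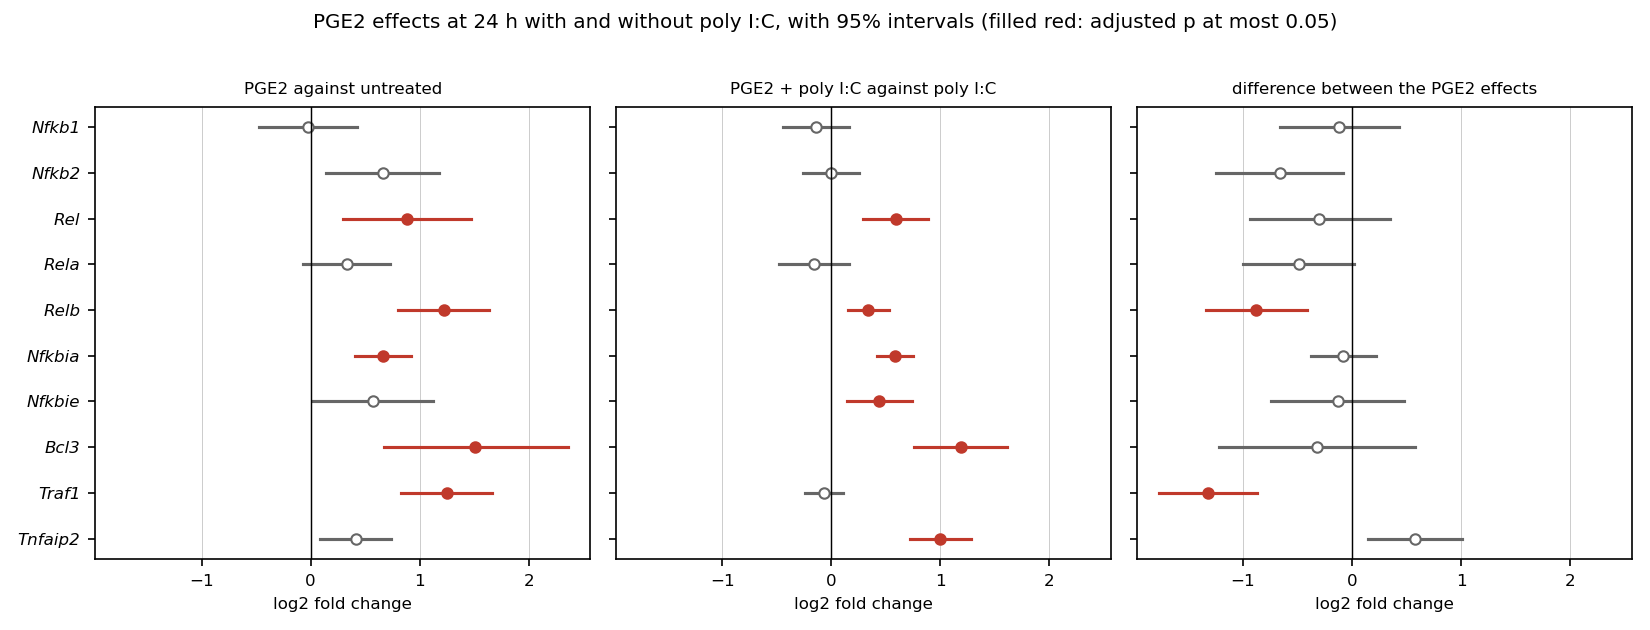
Log2 fold changes of the 10 genes (horizontal axes) at 24 h for PGE2 without poly I:C, PGE2 with poly I:C and the difference between the 2 effects, with 95% intervals. Filled red points passed an adjusted p of 0.05. Traf1 lies at 1.25 in the left panel and at -0.07 in the middle one.

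Seen from the other side, poly I:C raised all 10 genes in PGE2-treated cells too (30.8% of all tested genes rose and 34% fell, or 1619 and 1791 genes, and 888 and 3079 with library totals alone), with log2 fold changes between 1.42 (Rela) and 4.55 (Traf1). This comparison shares libraries with the previous ones. Of the pathway genes, 11 of 53 were higher and 5 lower with PGE2 and poly I:C than with poly I:C alone. Il1b (1.83 ± 0.25), Cyld (1.20 ± 0.34) and Malt1, a protease of the antigen receptor branch of the pathway (1.10 ± 0.36), were higher. Stat5a (-0.65 ± 0.16), Tnf (-0.64 ± 0.17) and Myd88 (-0.52 ± 0.12) were lower. The interaction was positive for 1 pathway gene, the adhesion molecule gene Icam1 (0.56 ± 0.16), and negative for 7, among them the ubiquitin ligase gene Birc3 (-1.85 ± 0.50), Ccr7 (-1.59 ± 0.15) and Bcl2a1b (-1.36 ± 0.38). Summed cDC1 markers stood at 4564 ± 365 CPM with poly I:C and 4828 ± 312 CPM with both agents. The plasmacytoid sum was 718 ± 89.6 and 1139 ± 165 CPM (Bst2 623 and 1045), the cDC2 sum 18.1 ± 7.72 and 61.6 ± 3.71 CPM, and the macrophage and monocyte sum 651 ± 85.7 and 486 ± 26.4 CPM. Their part in the differences was not tested.

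The genes with the most similar patterns were sought for 1 gene of each role, by Pearson's r of log2 group means over 4886 genes and 13 groups, which include 2 poly I:C groups with much higher levels. For Relb they were Marcks (r = 0.995), Gadd45b (0.995) and Cd86 (0.994), and over the 11 groups without poly I:C their r was 0.942, 0.916 and 0.897. For Nfkbia they were Trim25 (0.993), Myo1g (0.991) and Gbp5 (0.991), with 0.815, 0.780 and 0.885 over the 11 groups. For Traf1 they were Nub1 (0.996), Mcl1 (0.989) and Cd83 (0.988), with 0.959, 0.876 and 0.922. These points share libraries and scaling, and the values are descriptions.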

How the data were processed

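The authors deposited whole-number UMI counts per gene, made with the Drop-seq pipeline from reads annotated on GRCm38 with Ensembl release 75, per the labels' protocols (NextSeq 500, 3' ends). DESeq2 1.14.1 and GRCm38.p6 are listed in the submitters' processing notes. Aligner and strand setting: not given in the sources used here. Of 23136 lines, 1 with a text entry and 20 with dates as names (0.105% of counts) were left out, and 20976 of 23115 genes had a count. Counts were fitted in R 4.3.3 with edgeR 4.0.16 (TMM, filterByExpr by group, robust quasi-likelihood F test), per time over all its groups (5744 genes at 4 h, 5263 at 24 h) and over untreated and PGE2 cells of both times (5393). Benjamini-Hochberg adjustment covered all genes tested, and a gene was called, rose or fell at an adjusted p of at most 0.05. An adjusted p or SE without another tool beside it is edgeR's. "Log2" values are log2 fold changes. The labels' own rule, a log2 fold change of 1.5 with that p, would keep 2 of the 10 genes for PGE2 at 4 h and 1 at 24 h.

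Levels are CPM with TMM factors over all 52 libraries. A count of 0 allows up to 3 counts, 10.2 CPM at the median depth, for counting error only. Replicate pairs (78) differed by more than counting noise (chi-square per degree of freedom 1.376 to 2.705), and no library was counted as a repeat. Alternatives were DESeq2 1.42.0 and its size factors, library totals alone, no filter, only the groups compared, a replicate block, leaving out each library, and leaving out the 2 shallow ones. The script was tested on simulated data. The 10 genes, the pathway list and the marker lists were chosen with earlier results of these data known. All 10 genes are named, and of the pathway list the 3 called genes with the largest change in each direction. The comparisons of the combined group with single antagonists were added after the data had been seen. Promoter sequences are RefSeq's. Correlations between groups use log2 CPM with a prior count of 2.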

Additional observations from a re-analysis of the deposited data

Results flagged for a closer look

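The difference between PGE2 effects with and without poly I:C passed the test for Traf1 (-1.32) and Relb (-0.88), and that between the effects at 24 h and 4 h for Nfkbie (-1.57). Single libraries stood apart from the other 3 of their group in 6 of 130 combinations of gene and group, and chance alone gives about 1 in 20. Nfkb1 in PGE2 library D at 24 h was at 111 CPM, with a mean of 73 CPM over the others. Rela was at 173 CPM in EP2 antagonist library A (others 114) and at 453 CPM in poly I:C library C (others 383). Nfkbia was at 265 CPM in PGE2 library D at 4 h (others 405). Nfkbie was at 677 CPM in poly I:C library A (others 379), which lies above the mean of the group given both agents. Tnfaip2 was at 1829 CPM in library D given both agents (others 1442).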

How the results depend on the processing

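No called value of the 10 genes reversed. Of 2891 alternative values, 61 lost a call, 20 gained one and 98 changed sign with no call in either fit. Fits that gave a gene no adjusted p are not among them. The count of the 10 genes called moved by over 1.5 times in few settings. When only the groups compared were fitted it was 1 for the EP2 antagonist and 3 for PGE2 at 24 h. In the latter fit Rel lost its call, and Bcl3 failed the filter on low counts and had no adjusted p. Without the filter the count was 3 for PGE2 at 24 h and 1 for the interaction. It was then 0 for both the change of the PGE2 effect and untreated cells between times. For combined against EP2 antagonist it was 1 with library totals, without the filter and under DESeq2. Leaving out 1 library gave 6 to 7 genes for PGE2 at 4 h, 5 to 6 for control CM, 2 to 4 between the media, 0 to 1 for the EP2 antagonist, 6 to 7 for the combined group, 1 to 2 and 3 to 5 for it against the EP2 and EP4 antagonists, 3 to 7 for PGE2 at 24 h, 4 to 6 for PGE2 with poly I:C, 1 to 3 for the interaction, 0 to 2 between times and 0 to 1 for untreated cells. It stayed at 10 for both poly I:C comparisons and at 0 for the other comparisons. Replicate letters did not pair the samples: over 17 comparisons the deviations of same-letter libraries had correlations between -0.079 and 0.063. With a replicate block none of the calls was lost, and Tnfaip2 passed for PGE2 at 24 h (0.43, adjusted p = 0.0147) and for the interaction (0.60, adjusted p = 0.0183). Over all genes, counts moved by over 1.5 times for Ptgs-deficient CM against untreated cells (5, and 10 without the filter, 1 under DESeq2, 3 without the shallow libraries, 2 with only the groups compared), the EP2 antagonist (24, and 83 with only the groups compared), the EP3 antagonist (5, and 0 without the filter and under DESeq2, 9 with only the groups compared), the EP4 antagonist (2, and 0 without the filter and under DESeq2, 1 without the shallow libraries), the combined group against untreated cells (45, and 28 with library totals, 22 without the shallow libraries, 74 with only the groups compared), and, without the filter, the interaction (172 to 81), the PGE2 effect between times (235 to 128) and untreated cells between times (231 to 148). Leaving out 1 library gave 0 to 7 genes for Ptgs-deficient CM, 141 to 305 between the media (221 with all), 7 to 21 for the EP2 antagonist, 0 to 3 for each of the EP3 and EP4 antagonists, 16 to 39 for the combined group against untreated cells, 78 to 122 for it against the EP2 antagonist (123 with all) and 208 to 285 against the EP4 antagonist (317 with all). Depth limits Bcl3 most, with 9 counts over the untreated libraries at 4 h. The causes were not tested.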
